A study of Mus musculus with 2 samples.

Results

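Open chromatin was described at 9 genes for basic helix-loop-helix (bHLH) factors of the Neurod group and their partners, of 21853 protein-coding genes in the annotation. The genes were chosen by name: Neurod1, Neurod2, Neurod6, Bhlhe22, Tcf3, Tcf4, Tcf12, Id1 and Id2. All 9 were found in GENCODE M21 on assembly mm10 (GRCm38). DNase-seq, in which DNase I cuts DNA that nucleosomes leave bare in nuclei, was carried out on hippocampal tissue that the labels call a layer without naming it. The mice were B6CASTF1/J males of 2 months, which are first-generation hybrids of a B6 and a CAST parent, so each height pools 2 parental alleles placed on the B6 reference. The series held 1 group of 2 samples, biological replicates 1 and 2, listed as separate biosamples under the same donor entry. Whether the samples are separate animals is not stated, and with no treatment or other tissue there was nothing to test between groups.

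bHLH factors bind DNA as pairs, and their core target is the E-box, written CANNTG. Neurod factors drive and maintain the differentiation of neurons, and each needs an E protein (Tcf3, Tcf4 or Tcf12, which most tissues make) as its partner. Id proteins have the helix-loop-helix but no basic DNA-binding region, so they hold E proteins in pairs that cannot bind, while Bhlhe22 is a bHLH repressor of the Olig branch made in forebrain excitatory neurons.

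Each replicate came with a list of peaks, each with a signal height, and a list of footprints, short stretches inside open chromatin that were cut less than their surroundings. A shared site was a stretch where peaks of both replicates overlapped by at least 1 bp, and for each replicate it took the height of the tallest peak touching it. The lists held 132685 peaks in replicate 1 and 59880 in replicate 2, and gave 50780 shared sites. Heights moved in steps of 0.00535 (replicate 1) and 0.0108 (replicate 2), which would stand for depths of 187 and 93.0 M if a step were a single cut or read scaled per M, an inference from the values. Footprints numbered 255536 and 111355. The members' windows, the gene body plus 50 kb on each side, held 154 peaks in replicate 1, 130 in replicate 2 and 70 shared sites. Of markers for cells the tissue could hold, shared promoter peaks were found at 7 of 9 excitatory forebrain neuron genes, 2 of 3 dentate granule cell genes, 3 of 4 CA pyramidal cell genes, 2 of 5 astrocyte genes (none at Gfap), 3 of 6 oligodendrocyte lineage genes, 1 of 4 interneuron genes, 0 of 4 microglial genes, 0 of 4 endothelial genes and 1 of 5 cerebellar and hindbrain genes. Over all protein-coding genes the share was 57.1%. The dentate and oligodendrocyte counts lay near it, and lists so short place a share only roughly. Fewer open cells and less opening per cell cannot be told apart in such tissue.

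Of 69 overlapping footprint pairs in the members' shared sites, 13 held an E-box within the footprint or 10 bp of it. Of all footprints in peaks, taken singly with the same 10 bp, 18.2% held one. The share over all overlapping pairs was not computed, so the 13 are not read as more than in general. The 11 outside Tcf4 are shown because they set the letters the members' own proteins bind beside DNA protected in both replicates. The E-box lay inside the shared footprint in 5 of the 11 (both Neurod2 windows, the Tcf3 promoter, the Tcf12 window beyond the gene end and Id1 39.3 kb upstream), partly inside in 3, and within 10 bp outside it in 3. They are plus-strand GRCm38 (B6) sequence with 10 bases on either side of the shared footprint, and capitals mark the E-box.
Neurod2 distal site 13.1 kb upstream, chr11:98342726-98342773: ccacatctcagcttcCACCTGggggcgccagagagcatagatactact
Neurod2 distal site 15.8 kb upstream, chr11:98345434-98345470: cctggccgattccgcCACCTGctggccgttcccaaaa
Neurod6 promoter, chr6:55681126-55681155: acccatgcCATCTGctagtgacgtcacagg
Tcf3 promoter, chr10:80433674-80433704: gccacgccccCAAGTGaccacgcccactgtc
Tcf3 upstream promoter peak, chr10:80434193-80434220: atgcccgccggcgccgccacgtCAAGTG
Tcf3 distal site 12.7 kb upstream, left footprint, chr10:80446328-80446354: atggggcggcagttcagCATCTGtcca
Tcf3 distal site 12.7 kb upstream, right footprint, chr10:80446337-80446368: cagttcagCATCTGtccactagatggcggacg
Tcf12 distal site beyond the gene end, chr9:71806601-71806646: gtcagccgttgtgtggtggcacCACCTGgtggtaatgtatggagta
Tcf12 distal site 21.4 kb upstream, chr9:72133267-72133301: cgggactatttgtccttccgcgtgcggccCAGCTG
Id1 distal site 39.3 kb upstream, chr2:152696914-152696980: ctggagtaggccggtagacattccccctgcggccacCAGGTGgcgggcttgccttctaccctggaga
Id1 distal site 29.8 kb upstream, chr2:152706475-152706501: cagggcctCAGATGggactggtgccag
Both Neurod2 windows and the Tcf12 window beyond the gene end carried CACCTG, the reverse complement of the CAGGTG in the Id1 window 39.3 kb upstream. Both Tcf3 promoter windows carried CAAGTG. Neurod factors are known to prefer the form CAGATG, which the Id1 window 29.8 kb upstream held. The Neurod6 promoter and the distal Tcf3 windows held its reverse complement CATCTG. The 2 footprints 12.7 kb upstream of Tcf3 shared 1 copy of CATCTG. In the Neurod6 promoter, CATCTG was followed after 4 bases by TGACGTCA, the full cAMP response element, which CREB-family factors bind. Most of that element, and part of the CATCTG, lay outside the shared footprint. In the window 39.3 kb upstream of Id1, CAGGTG fell inside an exact match to the core of the CTCF motif, so that E-box and that motif are the same letters there. Stretches 1 letter off that core lay in both Neurod2 windows and in the Tcf12 window beyond the gene end. These stretches took in the E-boxes of those windows. The right Tcf3 window 12.7 kb upstream held another, beside its E-box. Only exact matches were counted, so a window without a match may still hold a CTCF motif.

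TGACGTCA occurred in or within 10 bp of 2 of the 69 shared footprints, at Neurod6 and in the site 1.05 kb upstream of Id1. It lay inside the shared footprint at Id1 but mostly outside it at Neurod6. The Id1 footprint is given on the same strand, with the element in capitals.
Id1 site 1.05 kb upstream, chr2:152735176-152735215: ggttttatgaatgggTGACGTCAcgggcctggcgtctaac
With the same 10 bp, TGACGTCA was found at 4 of 523 members' footprints lying in a peak (0.765%, exact 95% interval 0.209 to 1.95), 2 in each replicate, against 0.384% of all footprints in peaks. The 4 are the same 2 places seen in each replicate.

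The next sites are shown whole because footprints of both replicates recurred in them at the highest distal site of each Neurod gene and next to Id2. Capitals mark bases that lay in footprints of both replicates.
Neurod2 distal site 13.1 kb upstream, whole, chr11:98342661-98342880: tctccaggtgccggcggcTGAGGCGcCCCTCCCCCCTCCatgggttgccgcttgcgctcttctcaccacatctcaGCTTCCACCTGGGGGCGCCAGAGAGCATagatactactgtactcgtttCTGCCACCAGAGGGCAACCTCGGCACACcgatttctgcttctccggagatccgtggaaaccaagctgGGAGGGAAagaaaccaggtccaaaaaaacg
Neurod1 distal site 42.7 kb upstream, chr2:79499401-79499580: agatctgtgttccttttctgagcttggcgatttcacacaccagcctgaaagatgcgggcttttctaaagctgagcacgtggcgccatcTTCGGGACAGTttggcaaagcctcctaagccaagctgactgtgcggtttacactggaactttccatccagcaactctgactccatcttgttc
Neurod6 distal site 36.2 kb upstream, chr6:55717321-55717520: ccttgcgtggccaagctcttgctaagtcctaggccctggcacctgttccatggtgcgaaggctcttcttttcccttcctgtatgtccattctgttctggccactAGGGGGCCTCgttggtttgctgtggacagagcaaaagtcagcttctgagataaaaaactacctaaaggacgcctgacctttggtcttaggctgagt
Id2 site 1.79 kb upstream, chr12:25098821-25099040: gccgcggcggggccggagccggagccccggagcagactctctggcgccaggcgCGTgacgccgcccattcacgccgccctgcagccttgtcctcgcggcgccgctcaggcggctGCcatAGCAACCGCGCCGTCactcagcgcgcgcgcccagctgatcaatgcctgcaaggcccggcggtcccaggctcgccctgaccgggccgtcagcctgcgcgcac
At Neurod2, 84 of the site's 220 bases lay in footprints of both replicates, in 5 separate overlaps. At Neurod1, 11 of 180 bases did so, at Neurod6 10 of 200, and at Id2 20 of 220. The Neurod6 stretch overlapped a match to the CTCF core.

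All 9 genes had a promoter peak in both replicates, a promoter being 500 bp on either side of any protein-coding start site (9 of 9, exact 95% interval 66.4% to 100%), against 57.1% of all protein-coding genes. In the replicates alone, 63.4% and 58.5% of all genes had one. The promoters were open but not high. Their median height was 2.53 in replicate 1 and 1.85 in replicate 2, against 4.05 (quartiles 2.15 and 6.11) and 2.46 (quartiles 1.58 and 3.37) over the 12484 genes with a shared promoter peak. In replicate 1 the order of the genes was Tcf3, Id2, Tcf4, Neurod2, Tcf12, Neurod1, Neurod6, Bhlhe22 and Id1. In replicate 2 it was Id2, Tcf3, Tcf4, Neurod2, Tcf12, Bhlhe22, Neurod1, Id1 and Neurod6. Tcf3, Tcf4 and Id2 thus stood above the other 6 in both replicates, while neighbours within the lower group changed places. This order depended on the setting. By mean height over the replicates, Tcf4 was at 2.80 with the shorter deposited lists, against 2.85 at Neurod2, Id1 reached 3.16 with a 2000 bp window, and Tcf3 had no shared promoter peak under 50% reciprocal overlap. At these promoters the log2 ratio of replicate 2 over replicate 1 had a median of -0.56, against -0.71 over all open promoters. 

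**Figure D1:**
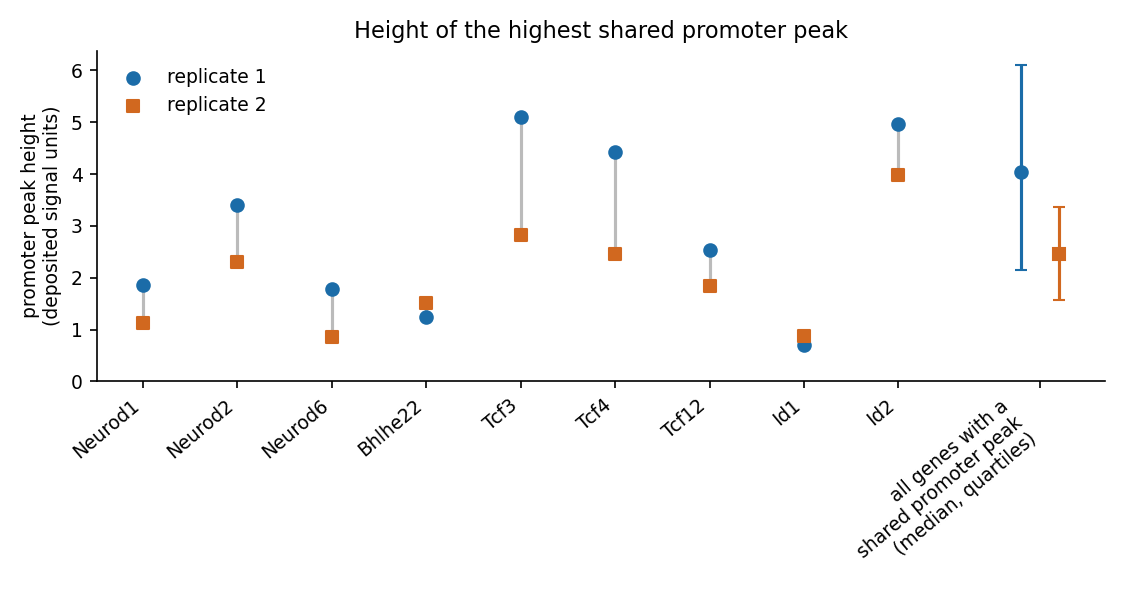
Height of the highest shared promoter peak (signal units as deposited, vertical axis) at each of the 9 genes in replicate 1 (circles) and replicate 2 (squares), with the median and quartiles of all genes with a shared promoter peak at the right. Tcf3, Tcf4 and Id2 lie highest, and only Bhlhe22 and Id1 are higher in replicate 2 than in replicate 1.

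Neurod1 (chr2:79452521-79456751, minus strand) encodes a factor needed for dentate granule neurons and for endocrine cells of the pancreas. Its promoter peak had a height of 1.86 in replicate 1 and 1.12 in replicate 2, at percentiles 21.2 and 13.3 of all open promoters. The window held 8 peaks in replicate 1 and 6 in replicate 2, and 5 shared sites. By mean height its highest site was not the promoter but an intergenic site 42.7 kb upstream, with heights of 3.14 and 1.30 in replicates 1 and 2, the Neurod1 site printed above. The coding exon carried a shared site 2.40 kb past the start with heights of 1.01 and 1.54, higher in replicate 2.

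Neurod2 (chr11:98325415-98329648, minus strand) acts in cortical and hippocampal excitatory neurons, also after they mature. Its promoter peak reached 3.40 in replicate 1 and 2.30 in replicate 2. Its 10 shared sites gave 9.59 per 100 kb, at percentile 93.7 of all protein-coding genes, although 3 of the 10 lay at the promoters of its neighbours Ppp1r1b and Stard3. The intergenic site 13.1 kb upstream was the highest distal site at any of the 9 genes, with heights of 7.92 in replicate 1 and 5.28 in replicate 2. It lay 5.52 kb from the nearest start, that of Ppp1r1b, so the gene it serves cannot be read from its position. Further distal sites followed 15.8 kb upstream (3.90 and 1.89 in replicates 1 and 2) and 15.7 kb downstream of the start (4.00 and 2.14). The downstream site was not in the shorter deposited list of replicate 2. Replicate 1 had 17 peaks here that replicate 2 lacked, and replicate 2 had 1 that replicate 1 lacked.

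Neurod6 (chr6:55677822-55681263, minus strand) marks pyramidal neurons of the cortex and hippocampus and has no other protein-coding gene in its window. Its promoter peak was lower, at 1.79 in replicate 1 and 0.861 in replicate 2, or percentiles 20.3 and 7.41. By overlaps of at least 1 bp the replicates nevertheless found nearly the same places: 7 of the 8 peaks of replicate 1 and 7 of the 9 of replicate 2 were shared. The shared sites numbered 3 with the shorter lists and 5 with 50% reciprocal overlap. Of the 7 shared sites, 3 lay 4.21, 4.78 and 5.06 kb past the start, just beyond the gene, with heights from 0.396 to 0.936. The highest distal site, 36.2 kb upstream, had heights of 1.73 in replicate 1 and 0.925 in replicate 2, close to those of the promoter.

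Bhlhe22 (chr3:18054174-18057517, plus strand) had 3 shared sites, the fewest of the 9 genes, all within 1.03 kb past the start. Replicate 1 had 3 peaks there with heights of 1.25, 0.797 and 0.626, and 1 wide peak of replicate 2 with a height of 1.51 covered all 3. It was the only member without a distal shared site. Replicate 2 alone had 6 more peaks, from 3.49 kb upstream to 1.53 kb past the start, with heights from 0.645 to 1.24. Replicate 1 alone had the highest peak of the window, 4.40 kb upstream, with a height of 2.99, 5 footprints and a lowest false discovery rate (FDR) of 1.72e-10, while the deposited FDR file of replicate 2 listed no interval there. That site is printed because it outranked the gene's promoter in the replicate that showed it. Capitals mark bases in footprints of replicate 1.
Bhlhe22 site 4.40 kb upstream, chr3:18049681-18049860: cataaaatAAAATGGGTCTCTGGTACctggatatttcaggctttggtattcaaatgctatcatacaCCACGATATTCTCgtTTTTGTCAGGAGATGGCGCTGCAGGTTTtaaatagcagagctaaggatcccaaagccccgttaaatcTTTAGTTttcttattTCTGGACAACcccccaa

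**Figure D2:**
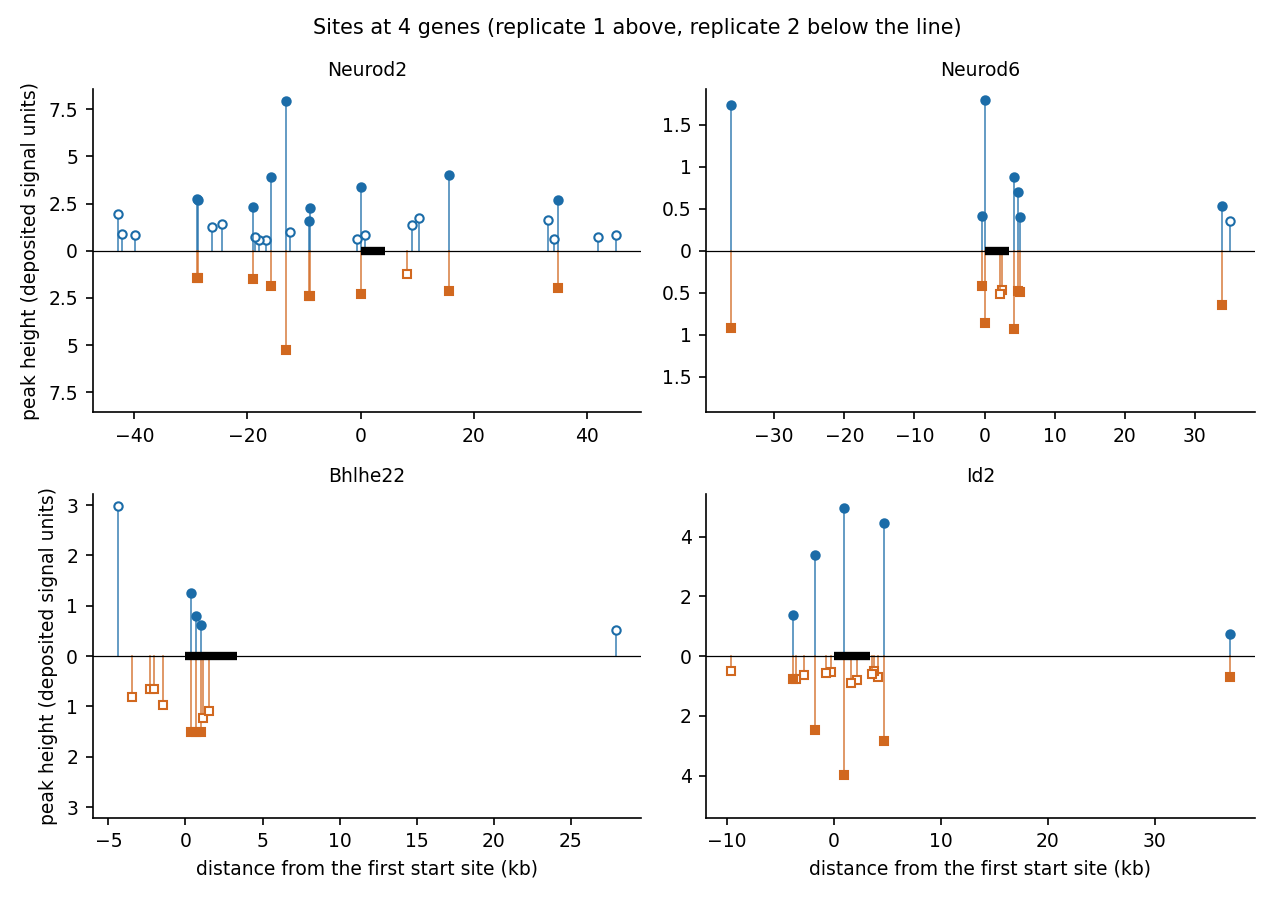
Peak height (signal units as deposited) against distance from the first start site (kb, positive in the direction of transcription) at Neurod2, Neurod6, Bhlhe22 and Id2, with replicate 1 above and replicate 2 below the line. Filled symbols are shared sites, open symbols are peaks found in 1 replicate, and the black bar is the gene. Replicate 1 peaks spread over the Neurod2 window, whereas the unmatched replicate 2 peaks at Bhlhe22 and Id2 gather around the gene.

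Among the E proteins, Tcf3 (chr10:80409514-80433647, minus strand), the source of E12 and E47, had the most open promoter in replicate 1. Its height was 5.10 in replicate 1 and 2.82 in replicate 2, and a second shared site 0.503 kb upstream of the start took 4.89 and 2.82. The replicate 2 height was the same at both sites, so they may be 1 wide peak in that replicate. The 3 starts 2.56 kb downstream and the start 11.8 kb downstream had no peak in either replicate. Its window is crowded: 4 of the 10 shared sites lay at promoters of Mex3d, Mbd3 and Uqcr11, and the highest site of all, 8.83 and 4.46 in replicates 1 and 2, was the Mbd3 promoter. The highest distal site, 5.37 in replicate 1 and 1.97 in replicate 2, lay 57.3 kb past the start and nearer to Mex3d. All 10 peaks of replicate 2 were found in replicate 1, and no other member lacked a peak of replicate 2 alone.

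Tcf4 (chr18:69343356-69689079, plus strand), whose loss of 1 copy causes Pitt-Hopkins syndrome in people, has 44 annotated coding starts, which formed 10 clusters when starts within 1000 bp were joined. Shared promoter peaks were found at 3 of the 10. Heights in replicates 1 and 2 were 3.21 and 2.39 at the first cluster, 0.877 and 1.31 at the second, 2.36 kb on, and 4.42 and 2.46 at the eighth, 250 kb into the gene. The internal cluster was higher than the first in replicate 1 and near it in replicate 2, and its peak was not in the shorter list of replicate 2. The seventh cluster, 178 kb in, had a peak of 1.30 in replicate 2 alone, and the other 6 clusters had no peak. The highest distal site, in an intron 165 kb in, had heights of 4.40 in replicate 1 and 1.66 in replicate 2, and another intronic site at 310 kb had 3.36 and 1.70. In replicate 2 the lowest FDR was 0.0239 at the 165 kb site, which was not in the shorter list, and 3.80e-27 at the 310 kb site.

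The Tcf4 window also held a dense disagreement between the replicates. From 34.0 to 53.9 kb into the gene, all in an intron and away from any coding start, replicate 2 had 29 peaks and replicate 1 had 1. Of the 29, 28 had no counterpart. The 29 heights were low, from 0.129 to 0.850 with a median of 0.355, at percentile 4.25 of all replicate 2 peaks, yet 23 were also in the shorter and stricter of the 2 deposited lists, and 26 footprints were called there. Over the genome, 7 stretches of 20 kb held at least 20 peaks of replicate 2 that replicate 1 lacked, of which this was 1, and 140 held as many the other way round. A milder cluster, from 302 to 315 kb, had 14 peaks in replicate 2 and 7 in replicate 1 from 304 to 312 kb, of which 5 were found in the other replicate either way. What these clusters of low peaks reflect was not tested.

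**Figure D3:**
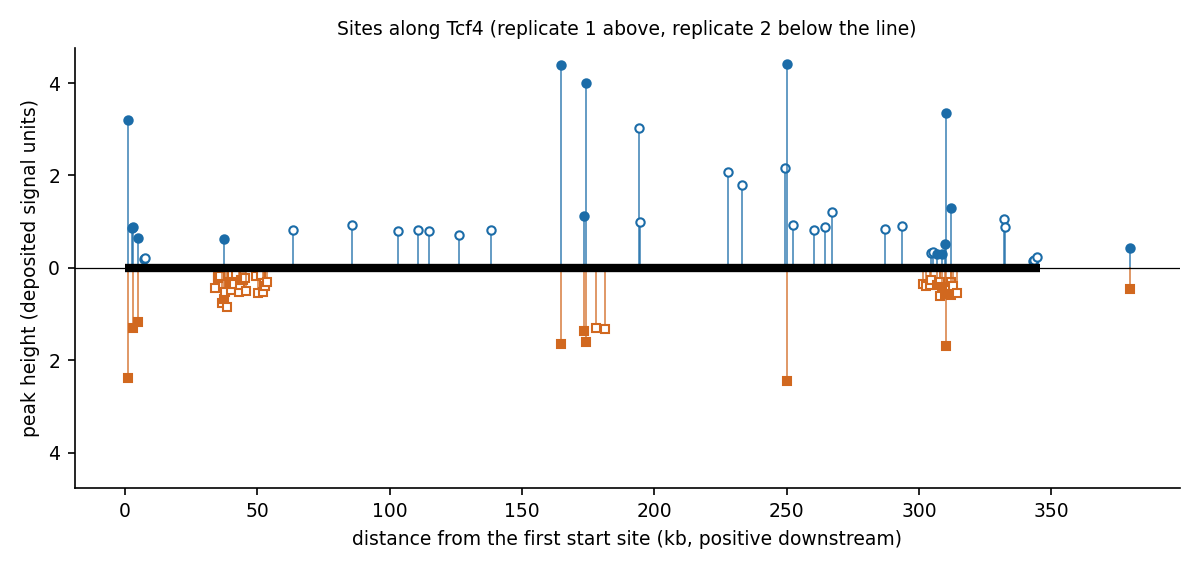
Peak height (signal units as deposited) against distance from the first start site of Tcf4 (kb, positive downstream), with replicate 1 above and replicate 2 below the line. Filled symbols are shared sites, open symbols peaks found in 1 replicate, and the black bar is the gene. Between 34.0 and 53.9 kb replicate 2 has 29 low peaks and replicate 1 has 1.

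Tcf12 (chr9:71842688-72111871, minus strand), which encodes the E protein HEB, is also a long gene but was sparse: its 7 shared sites gave 1.90 per 100 kb, the lowest density of the 9 and percentile 31.8 of all genes. Its promoter peak reached 2.53 in replicate 1 and 1.85 in replicate 2 at the first of 4 start clusters. The cluster 215 kb downstream had a peak of 0.422 in replicate 1 only, and the other 2 had none. The highest distal sites were 305 kb past the start, beyond the gene's end (3.35 and 1.14 in replicates 1 and 2), and 21.4 kb upstream (2.17 and 2.29). At the promoter itself, replicate 2 had 2 further peaks, of 1.53 and 1.52, the second lying within the first. They lay between peaks of replicate 1 without touching them, where the FDR of replicate 1 was 2.91e-08. Both fell inside the wider replicate 2 peak of 1.85, which was shared, so they are not separate places. Such peaks count here as unmatched.

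The 2 Id genes differed in promoter height within 500 bp of a start. Id2 (chr12:25093799-25097140, minus strand), which is made in many neurons, had the second highest promoter of the set in replicate 1 (4.97) and the highest in replicate 2 (3.99), at percentiles 61.6 and 87.1. That peak lay 0.919 kb past the first start, at the downstream pair of its 3 starts, and the first start had a peak of 0.538 in replicate 2 only. Shared sites flanked the gene 1.79 kb upstream (3.40 and 2.47 in replicates 1 and 2) and 4.70 kb past the start (4.45 and 2.83). All 5 peaks of replicate 1 were shared, and replicate 2 had 10 more of 0.506 to 0.893 around the gene.

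Id1 (chr2:152736251-152737410, plus strand), a target of BMP signalling, had the lowest promoter peak of the set in replicate 1 and the second lowest in replicate 2. Its heights were 0.706 and 0.882, at percentiles 4.56 and 7.87. The site 1.05 kb upstream, which holds TGACGTCA, was higher than the promoter in both replicates, at 4.42 and 1.89. A promoter window of 2000 bp takes this site in and lifts the mean promoter height of Id1 to 3.16, against 0.794 with 500 bp. The highest site of its window, 7.46 in replicate 1 and 3.24 in replicate 2, lay 39.3 kb upstream in an intron of H13, the window with the CTCF core printed above. Id1 had 8.90 shared sites per 100 kb, percentile 92.0, with 4 other protein-coding genes in its window.

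The 70 shared sites comprised 17 at the members' own promoters, 9 at promoters of other genes, 6 between 500 and 2500 bp from a start, and 38 distal, that is over 2500 bp from every protein-coding start. The distal share was 54.3% (exact 95% interval 41.9 to 66.3), against 55.5% of all shared sites, a share near the background. Of the 38, 22 were intergenic, 13 intronic and 3 exonic. Distal sites had median heights of 1.68 in replicate 1 and 1.33 in replicate 2, against 1.27 and 0.871 over all 28183 distal shared sites. The median density of shared sites was 4.84 per 100 kb over the 9 genes, against 3.30 (quartiles 1.41 and 5.66) over all genes, so the members' median lay within the middle range of genes. Heights were higher in replicate 2 at 27 of the 70 sites (28.7% of all shared sites were), and the log2 ratio of replicate 2 over replicate 1 had a median of -0.54 (quartiles -0.92 and 0.23), against -0.48 over all shared sites. With a 10 kb flank the members' median was -0.16, against -0.47 over all shared sites within 10 kb of a protein-coding gene body. With the shorter lists it was -0.82, against -0.64, so whether the members lay above or below the general value depended on the setting.

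Counted from replicate 2, the replicates agreed less on the members' sites than on peaks in general. Counted from replicate 1, the interval held the general share. Of the 154 replicate 1 peaks at the members, 70 (45.5%, exact 95% interval 37.4 to 53.7) were found in replicate 2, against 38.0% of all replicate 1 peaks. Of the 130 replicate 2 peaks, 65 (50%, interval 41.1 to 58.9) were found in replicate 1, against 81.8% of all replicate 2 peaks. Tcf4 weighed on this: without it the shares were 50% (56 of 112) and 66.2% (51 of 77), and without its stretch from 30 to 60 kb they were 45.1% (69 of 153) and 63.4% (64 of 101). These intervals cover counting only, and neighbouring peaks are not independent. At 4 of the 9 genes (Neurod6, Bhlhe22, Tcf4 and Id2) replicate 2 had more peaks than replicate 1, which was so at 2.82% of all protein-coding genes. Peaks found in replicate 2 alone sat close to the genes: 62 of 65 (95.4%) lay in or within 10 kb of the gene body, and 23 of 26 (88.5%) without Tcf4, against 50% of such peaks in the windows of all protein-coding genes, counted once per gene. For peaks found in replicate 1 alone the counts were 51 of 84 (60.7%), and 23 of 56 (41.1%) without Tcf4, against 47.7%.

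**Figure D4:**
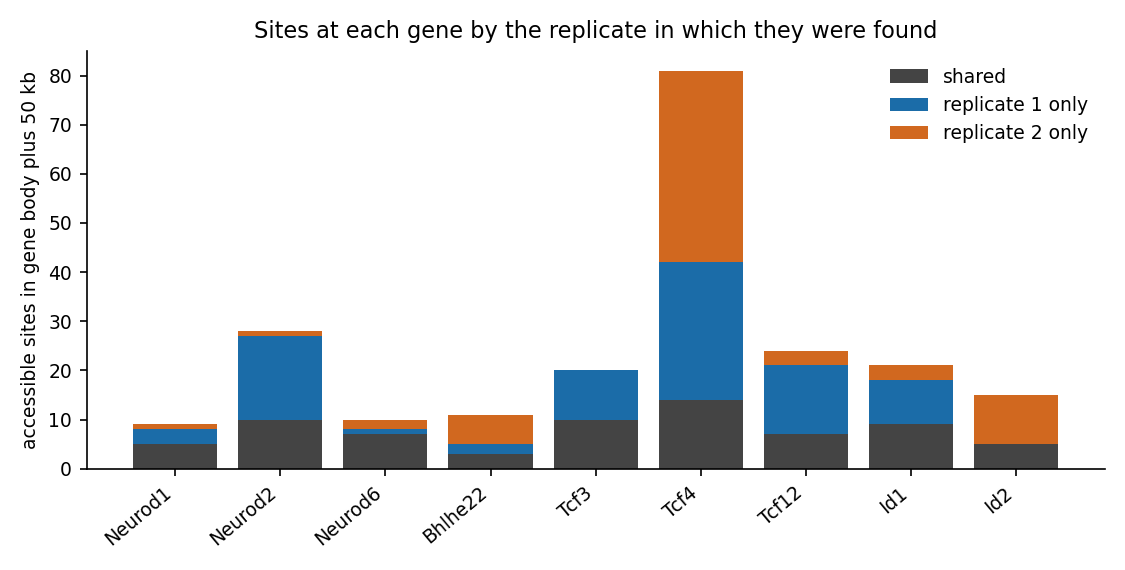
Number of accessible sites in the gene body plus 50 kb (vertical axis) at each gene, split into shared sites, peaks found in replicate 1 alone and peaks found in replicate 2 alone. Tcf4 carries 39 of the 65 replicate 2 peaks without a counterpart, and Tcf3 carries none.

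Peaks without a counterpart were lower than shared ones. Their medians were 0.796 in replicate 1 (84 peaks) and 0.516 in replicate 2 (65 peaks), against 2.02 and 1.51 at shared sites. In replicate 1, 8 of them exceeded 1.8, a limit chosen after the values were seen, and in replicate 2 none did, where the highest was 1.53. The highest was 3.32, with 7 footprints, 59.3 kb past the Tcf3 start and near Mex3d. It was followed by 3.02 in Tcf4 at 194 kb and by the Bhlhe22 site at 2.99. The peak of 2.30 at 40.4 kb past Id1 lay between replicate 2 peaks of 1.04 and 1.23 and had a replicate 2 FDR of 5.87e-06, so the replicates had peaks side by side there. In general the other replicate's FDR file had an interval at 7 of the 84 replicate 1 peaks (8.33%, against 8.45% of all such peaks) and at 9 of the 65 replicate 2 peaks (13.8%, against 28.4%).

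Footprints were called in both replicates at 57 of the 70 shared sites (81.4%, exact 95% interval 70.3 to 89.7), against 63.5% of all shared sites. The shares were 92.9% in replicate 1 and 82.9% in replicate 2, against 80.5% and 70.0%. In 42 sites (60%) footprints of both replicates overlapped, against 48.6% of all shared sites. Tcf3 had 20 overlapping pairs, Id1 11, Tcf4 10, Neurod2 and Id2 9 each, Tcf12 5, Neurod6 3, and Neurod1 and Bhlhe22 1 each. The members' distal sites were also higher than the general median, as given above, and the part of height in these shares was not tested.

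CANNTG was no more frequent in the members' footprints than in others when the replicates were pooled. It was present in 79 of 523 footprints lying in peaks and extended by 10 bp (15.1%, exact 95% interval 12.1 to 18.5), against 18.2% of all. By replicate the members had 48 of 319 (15.0%) in replicate 1 and 31 of 204 (15.2%) in replicate 2, against 47480 of 237720 and 13974 of 99192 (14.1%) over all footprints in peaks, so the members were lower in replicate 1 and slightly higher in replicate 2. CAGATG was in 3.82%, against 5.44%, CAGCTG in 1.91%, against 3.29%, and CAGGTG in 3.25%, against 2.65%. For CAGGTG the replicates differed, with 3.76% in replicate 1 and 2.45% in replicate 2, against 2.70% and 2.54%. GGGCGG, the GC box, whose letters hold no E-box, was in 11.1%, against 7.80%, with 40 of 319 in replicate 1 and 18 of 204 (8.82%) in replicate 2, against 16639 of 237720 and 9646 of 99192 (9.72%). The CTCF core was in 1.53%, against 1.19%, with 1.88% in replicate 1 and 0.980% in replicate 2, against 1.15% and 1.27%. Motifs were exact letters on either strand, so near matches, as to the CTCF core, were not counted. RefSeq promoter windows of 300 bases (GRCm38.p6) were matched for 6 members in 8 windows, for Neurod1, Neurod2, Neurod6, Tcf3, Tcf12 and Id2. CANNTG was in 8 of the 8, against 72.3% of all 32851 windows, and GGGCGG in 6 of the 8, against 35.7%, with a median GC content of 62.5%, against 52.7%.

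The wider bHLH family was uneven. Shared promoter peaks were found at 7 of 15 proneural and neuronal bHLH genes, a group that acts mainly in progenitors, but at 2 with the shorter lists and 4 with a 200 bp window. Among them were Olig1 (1.71 in replicate 1 and 0.914 in replicate 2) and Atoh8 (1.11 and 1.15), while Atoh7 (0.685) and Nhlh1 (0.519) had peaks in replicate 1 only. The Id, Hes and Hey repressors had 9 of 14, with Hey2 (8.79 in replicate 1 and 4.41 in replicate 2), Hey1 (5.48 and 4.24) and Id4 (4.16 and 1.69) highest by the mean of the replicates. In replicate 2 Id4 lay below Bhlhe40 (2.36), Hes1 (2.03) and Hes6 (1.87). The Id2 promoter was near the Hey1 level, and the Id1 promoter below Id3 (1.26 and 1.23). All 22 widely used bHLH-ZIP and PAS factors had one, led by mean height by Max (9.23 and 3.89), Tfeb (8.19 and 4.50) and Mnt (7.44 and 4.16). Muscle and mesoderm bHLH genes had 4 of 15 (2 with the shorter lists and 1 with a 200 bp window), led by Mesp2 (1.95 and 1.77) and Msc (0.872 and 1.19), with Twist2 (0.818) in replicate 2 only. Those of blood, gut and other tissues had 2 of 8 (1 under each of these settings), Ascl2 (1.08 and 0.732) and Tal1 (0.604 and 0.775), with Tal2 (0.508), Tcf24 (0.374) and Ferd3l (0.294) in replicate 1 only. All 9 cofactor genes of E proteins and Bhlhe22 had one, led by mean height by Cbfa2t2 (6.79 and 3.49), Ep300 (6.63 and 2.36) and Lmo4 (4.73 and 2.28), of which Ep300 and Lmo4 lay below Crebbp (2.62) in replicate 2. The Bhlhe22 promoter, at 1.25 and 1.51, was lower in both replicates than that of Prdm8, its corepressor partner, at 3.36 and 2.24. The shares stand beside the 57.1% of all protein-coding genes.

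**Figure D5:**
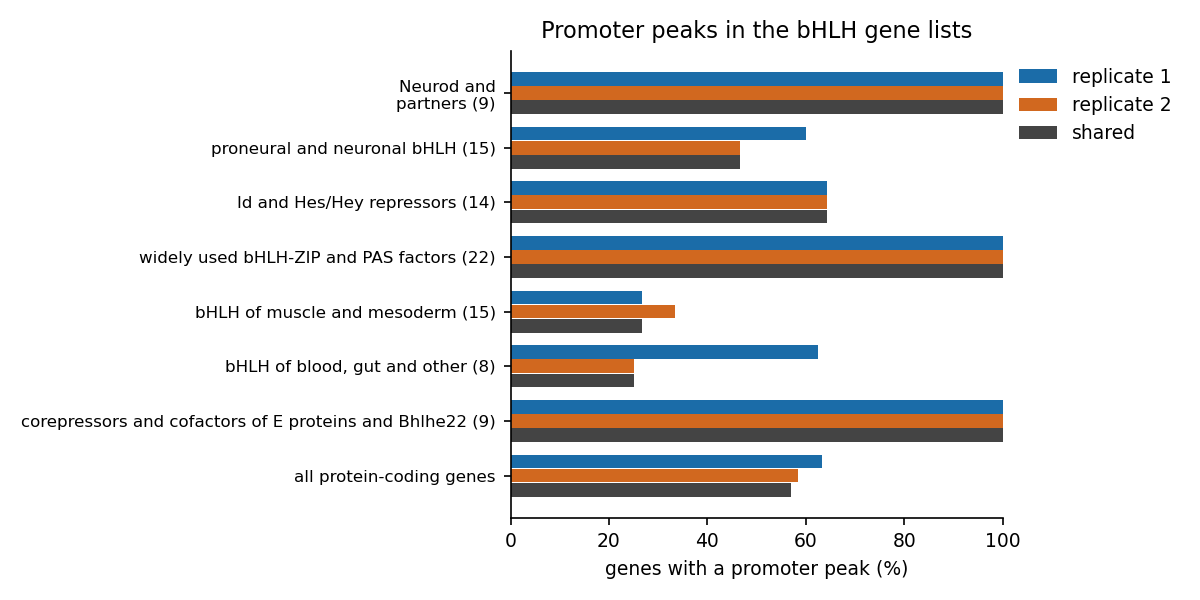
Share of genes with a promoter peak (%, horizontal axis) in replicate 1, in replicate 2 and in both, for the 9 genes, for other bHLH and cofactor lists (number of genes in brackets) and for all protein-coding genes. The Neurod and partner genes, the widely used bHLH-ZIP and PAS factors and the cofactors reach 100%, and the proneural, muscle and blood lists lie below all protein-coding genes in the share with peaks in both.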

How the data were processed

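DNase-seq peaks, footprints and false discovery rates (FDR) were deposited separately for each of 2 samples, on mm10 per the labels. Aligner and callers were not given in the sources used here. Peak heights are signal values as deposited by the authors, whose scaling is not stated. The FDR is a q-value (an adjusted p-value) per interval, as deposited by the authors and listed up to 0.0500. In the deposited footprint files the p-value column held the constant 0.01, so footprints were used by position.

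The longer of the 2 peak lists of each sample was used. Starts and genes came from GENCODE M21, sequence from GRCm38. Shared sites were intersections of peaks of at least 1 bp. Intervals of shares are exact (Clopper-Pearson), cover counting error only, and treat sites as independent. The overlap steps were tested on simulated intervals. Python 3.11.15, numpy 2.4.6, scipy 1.17.1 and matplotlib 3.10.9 were used. The members, lists, motifs and named-gene rule (all members, the 3 highest promoters of each other list and peaks in 1 replicate where at most 5, and each member's highest sites) were chosen with earlier results of these data known. A gene that the rule took is not reported here. Other genes and sites were named after their values were seen. With 1 group, no test between groups was made. Replicate spread may be technical. Alternatives were the shorter lists, 50% reciprocal overlap, other promoter windows, flanks, footprint extensions, rescaling and each replicate alone.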

Additional observations from a re-analysis of the deposited data

How the results depend on the processing

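No paired analysis was possible because the series has 1 group and no comparison between groups. The count of members with a shared promoter peak was 8 with the shorter lists (Neurod1 lost), 7 with 50% reciprocal overlap (Bhlhe22 and Tcf3 lost), 8 with a 200 bp window (Bhlhe22 lost) and 9 with 2000 bp, against 51.2%, 43.8%, 54.7% and 60.1% of all protein-coding genes. The 70 shared sites became 43 with the shorter lists, 45 with reciprocal overlap, 42 with a 10 kb flank and 29 with no flank, and the replicates alone held 130 to 154 peaks. The density of 4.84 per 100 kb became 2.90 with the shorter lists, 3.87 with reciprocal overlap and 12.4 with a 10 kb flank, and 7.73 to 8.70 in the replicates alone. Replicate 1 peaks with a counterpart in replicate 2 became 29.2% with reciprocal overlap and 54.1% with lists of equal length. Replicate 2 peaks with a counterpart in replicate 1 became 34.6% and 38.5% under the same settings and 38.0% with a 10 kb flank. It was 66.2% without Tcf4 and 63.4% without the stretch from 30 to 60 kb, settings chosen after seeing the data. The share of sites with footprints in both replicates became 60% where these had to overlap, and was 82.9% to 92.9% in the replicates alone. The E-box share became 5.74% with no extension and 27.3% with 20 bp. The log2 height ratio stayed negative under every setting run, but was only -0.0625 after rescaling to a general median of 0. A 95% interval of its main median, from the ordered site ratios, ran from -0.822 to 0.00828, which took in positive values. That interval also treats sites as independent. The place of the ratio against all shared sites, and that of the E-box share by replicate, changed as given above. Only the promoter count and the height ratio have a background under alternatives. Of 95 values for single genes, 62 kept within the limit (1.5 times for counts, the SD of the 2 replicates for heights) and 33 did not. Of 36 counts for other gene lists, 29 kept within 1.5 times and 7 did not, among them the blood and gut list, with 5 in replicate 1 alone against 2 shared. The Tcf12 promoter height became 0.730 under reciprocal overlap, against 2.19. The cause of these shifts was not tested. Replicate 2 had the shorter lists and the larger height step, so low heights there are known less finely. Height alone did not rank certainty in replicate 2. Of its low Tcf4 peaks from 34.0 to 53.9 kb, 23 of 29 were in the stricter list, while its Tcf4 site of 1.66 at 165 kb was not. No height can be placed against a spread from more than 2 samples.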
